A study of Mus musculus with 24 samples.

Results

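The 10 genes described here encode Wnt ligands of the mouse airway epithelium: Wnt10a, Wnt9a, Wnt4, Wnt3a, Wnt5a, Wnt5b, Wnt7a, Wnt7b, Wnt11 and Wnt16. They are 10 of the 35855 genes to which transcripts of the deposited tables could be matched, and 10 of the 19 mouse Wnt genes. The list was selected on values measured in these same libraries, among them the Wnt10a level in the BCAM groups against the differentiated group, so the levels and counts below are a description of the listed genes and support nothing about why they were listed. The series holds 24 bulk RNA-seq libraries, each made with the SmartSeq2 protocol from 1000 sorted cells of the tracheas of naïve, wild-type (WT) female C57BL/6 mice, whose age the labels do not give. The sorted subsets are labelled BCAM HI, BCAM LO and DIFFERENTIATED EPCS. They are written as BCAM high, BCAM low and differentiated, and each has 8 libraries. In every group, libraries 1 to 5 belong to batch 1 and libraries 6 to 8 to batch 2. What a batch stands for, how many mice gave cells to a library, and whether same-numbered libraries share a mouse is not stated in the labels, so p-values measure the spread between these libraries, which may be partly technical. BCAM is a surface adhesion protein that was used to divide the cells, and none of the animals was treated.

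Wnt proteins are secreted, lipid-carrying ligands. The enzyme Porcupine, encoded by Porcn, attaches a fatty acid to each of them in the endoplasmic reticulum, and the carrier Wntless, encoded by Wls, then takes them to the cell surface. On the receiving cell, Frizzled receptors with the co-receptors Lrp5 and Lrp6 stabilise beta-catenin (Ctnnb1), which turns on targets such as Axin2, while other Wnt ligands act through routes that steer cell polarity and movement. In the airway, Wnt signals are known for their part in the upkeep and regeneration of basal cells, the stem cells at the base of the epithelium.

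All 10 listed proteins carry the serine to which Porcupine attaches the fatty acid, and this site is shown because it is the feature that the secretion genes described below act on. The lines give 24 coding bases around it, 5′ to 3′, from GENCODE M21 transcripts of mouse build GRCm38, with the serine codon in capitals.
Wnt10a: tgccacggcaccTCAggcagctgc
Wnt9a: tgccatggtgtgTCTggctcctgc
Wnt4: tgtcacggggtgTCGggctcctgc
Wnt3a: tgccacgggctaTCTggcagctgt
Wnt5a: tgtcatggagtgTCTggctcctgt
Wnt5b: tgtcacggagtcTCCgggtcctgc
Wnt7a: tgccatggtgtgTCAggctcctgt
Wnt7b: tgtcacggtgtgTCAggctcctgt
Wnt11: tgccatggggtgTCTggctcctgc
Wnt16: tgccacggagttTCCggctcctgt
The listed genes used 4 different serine codons here, and 13 of the 24 bases were the same in all 10. Wnt9a and Wnt11 were the most alike, with 23 of 24 bases identical, and Wnt10a and Wnt5a the least, with 14. Over whole transcripts the sequences were far enough apart to be told from one another. Of all stretches of 31 bases, the length that kallisto indexes by default, none of Wnt10a, Wnt9a, Wnt3a, Wnt5b and Wnt7a occurred in a transcript of another gene. The shared part was 6.62% for Wnt4, 4.18% for Wnt5a, 0.253% for Wnt16, 4.82% for Wnt7b and 8.02% for Wnt11. For Wnt7b all of it lay in AU022754, which M21 places in the same region of chromosome 15 on the opposite strand, and for Wnt11 in Gm8398. Reads from the shared part of Wnt7b cannot be told apart where strand is not used. For Wnt11 the orientation of the shared part was not recorded.

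In M21 coordinates of build GRCm38, Wnt10a lies at chr1:74791516-74804179 and Wnt4 at chr4:137277489-137299726, both on the plus strand. Wnt9a (chr11:59306928-59333552, plus strand) and Wnt3a (chr11:59248033-59290752, minus strand) are neighbours on chromosome 11. Wnt5a is on chromosome 14, Wnt7b on chromosome 15 and Wnt11 on chromosome 7, while Wnt5b, Wnt7a and Wnt16 are all on chromosome 6. Values cover the whole gene, since the estimated counts of its transcripts were summed.

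Library totals ran from 1824619 to 4440072 estimated counts. The summed level of 5 basal markers (Krt5, Krt14, Trp63, Ngfr, Krt17) was 2479 to 4017 CPM in BCAM high (CPM being counts scaled to a common library total with TMM factors). It was 1398 to 1999 CPM in BCAM low and 8.44 to 29.4 CPM in differentiated. Summed secretory markers (Scgb1a1, Scgb3a2, Muc5b, Bpifa1, Cyp2f2) reached 275835 to 399470 CPM in differentiated libraries 1 to 5 but 15257, 11324 and 68632 CPM in libraries 6, 7 and 8. These markers summed to 25707 to 34762 CPM in BCAM high and 34422 to 73417 CPM in BCAM low, so differentiated 6 and 7 lay below every BCAM library. The differentiated libraries also held markers of other cell types and of neighbouring glands. Immune markers (Ptprc, Cd74, Tyrobp, Lyz2) summed to 1350 to 25240 CPM there, 55.2 to 337 CPM in BCAM high and 466 to 2008 CPM in BCAM low. Tyrobp was at 0 in differentiated libraries 6, 7 and 8, where the other 3 markers summed to 5133, 1350 and 14492 CPM. Neuroendocrine markers (Chga, Calca, Resp18) summed to 17.3 to 11455 CPM in differentiated, and to at most 4.71 CPM in BCAM high and 192 CPM in BCAM low. All 4 thyroid follicle markers (Tg, Pax8, Iyd, Slc5a5) had counts in every group, and their sum was 13287 to 25109 CPM in differentiated libraries 1 to 5 and 48110 to 114554 CPM in libraries 6 to 8, against 1.47 to 1259 CPM in BCAM high and 1.42 to 232 CPM in BCAM low. All 3 parathyroid markers (Pth, Gcm2, Casr) had counts too, with sums of 0.411 to 17781 CPM in differentiated. Each result against the differentiated group below rests on libraries with this content, whose part in those results was not tested. In bulk libraries, fewer cells of a type and less RNA per cell cannot be told apart.

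A gene counts here as detected in a library when its rounded count is at least 3. Wnt4 and Wnt7b were detected in all 24 libraries. Wnt10a, with 8 of 8 libraries in each BCAM group and 0 of 8 in differentiated, was the most divided of the listed genes by this measure. Wnt9a and Wnt5b were each detected in all 16 BCAM libraries, and in 4 and 5 differentiated ones. Wnt5a had the reverse distribution, with 8 of 8 differentiated libraries, 6 of 8 BCAM low and 4 of 8 BCAM high. Wnt3a was detected in 7 BCAM high and 5 BCAM low libraries and in no differentiated one. Wnt16 was detected in 3, 6 and 3 libraries of BCAM high, BCAM low and differentiated, and Wnt11 in 0, 5 and 2. Wnt7a was detected in 1 library, BCAM low 3. The first 6 of these passed edgeR's filter on low counts and could be tested, and the last 4, Wnt3a, Wnt16, Wnt11 and Wnt7a, did not.

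Levels of different genes are compared here per length, as deposited TPM (transcript abundance scaled to a fixed total per library) summed per gene. In BCAM high, Wnt10a (23.4 ± 10.2 TPM, SD, n = 8) and Wnt4 (23.0 ± 4.26 TPM) led and did not differ beyond their spread. Wnt7b (11.3 ± 2.69 TPM) and Wnt9a (9.14 ± 7.82 TPM) followed, again within their spread, then Wnt5b (2.77 ± 1.28 TPM), while every other listed gene was at a mean of 1.53 TPM or less. The drop from Wnt4 to Wnt7b was the only step between neighbours in this order that was larger than both genes' SD.

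In BCAM low the order was Wnt4 (20.5 ± 6.82 TPM, n = 8), Wnt7b (13.5 ± 4.38 TPM), Wnt10a (12.6 ± 7.14 TPM), Wnt9a (3.37 ± 2.45 TPM) and Wnt5b (2.54 ± 1.01 TPM). Wnt7b and Wnt10a lay within their spread of each other, as did Wnt9a and Wnt5b. In differentiated, Wnt7b (6.56 ± 3.60 TPM, n = 8), Wnt4 (4.59 ± 3.53 TPM) and Wnt5a (3.46 ± 3.28 TPM) led, and no 2 neighbours among them differed beyond their spread. Wnt10a and Wnt7a closed the order at 0.

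**Figure D1:**
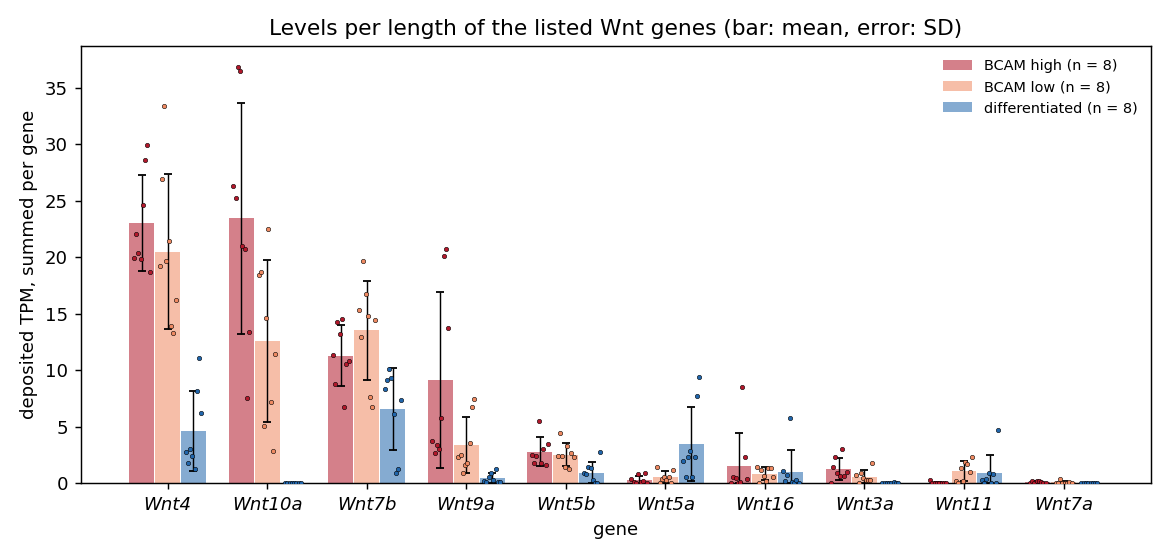
Deposited TPM summed per gene (y axis) of the 10 listed Wnt genes (x axis) in BCAM high, BCAM low and differentiated, with bars for the mean of 8 libraries, error bars for the SD (stopped at 0) and points for single libraries. Wnt4 and Wnt10a are the tallest bars of BCAM high, at 23.0 and 23.4 TPM, and Wnt7b the tallest of differentiated, at 6.56 TPM.

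Together the 19 Wnt genes summed to 63.4 to 92.6 TPM in BCAM high libraries (median 72.5), 35.5 to 71.0 TPM in BCAM low (median 61.0) and 9.71 to 30.6 TPM in differentiated (median 19.7). The BCAM high and differentiated libraries did not overlap in this sum, and neither did the BCAM low and differentiated ones. TPM values are shares of a fixed total, and in differentiated libraries 1 to 5 a few secretory transcripts take a large part of it, so the sums are given as a description. Wnt10a supplied 9.94% to 44.8% of the Wnt sum in BCAM high (median 34.4%) and 7.57% to 33.1% in BCAM low (median 22.4%). It was the highest Wnt gene in 4 BCAM high libraries, with Wnt4 in the other 4, and Wnt4 was the highest in 7 of 8 BCAM low libraries. In differentiated, Wnt7b was the highest in 5 libraries, Wnt4 in 2 and Wnt5a in 1.

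Differences between groups were fitted on counts with edgeR's quasi-likelihood test across all 12211 genes that passed the filter, with batch as a covariate. A gene is called when its Benjamini-Hochberg adjusted p is under 0.05. Of the 6 testable Wnt genes, 2 passed this threshold between the BCAM groups, both higher in BCAM high, where 7.02% of all tested genes were called. Against differentiated, 4 of the 6 were called for BCAM high (3 higher, 1 lower) and 4 for BCAM low (3 higher, 1 lower). The share over all tested genes was 41.3% and 33.5% in these comparisons, which share the differentiated libraries. Nothing is read from these counts against those shares, since they include Wnt10a, whose level in this contrast served to choose the list. They also include Wnt5a and Wnt9a. The counts of Wnt5a lie mostly in differentiated and those of Wnt9a mostly in the BCAM groups, which let each pass the filter. The median log2 fold change of the 6 genes was -0.05, 1.25 and 1.30 in the 3 comparisons, and that of all tested genes 0, 0.024 and 0.023. Of all calls, 34.7%, 46.8% and 48.8% were higher in the first group. On log2(TPM + 1) with limma these shares were 78.2%, 88.3% and 86.6% and the median gene moved by 0.229, 0.636 and 0.401, so the fold changes below are those of the scaled counts.

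Wnt10a, a ligand known in skin appendages, teeth and taste papillae, had counts in every BCAM library and in no differentiated one. Its level was 13.8, 36.4 and 62.2 CPM (lowest, median, highest of 8) in BCAM high and 6.86, 23.9 and 33.7 CPM in BCAM low, and all 8 differentiated libraries had a count of 0. The BCAM groups overlapped with each other, and neither overlapped with differentiated. The level was 36.6 ± 15.9 CPM in BCAM high and 20.7 ± 9.92 CPM in BCAM low (SD, n = 8), a fitted log2 difference of 0.81 (SE 0.24, edgeR adjusted p = 0.0450).

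Against differentiated, the 1085 counts of BCAM high are at least 196-fold and the 615 of BCAM low at least 115-fold above the floor of 3 counts over the differentiated group, which equals 0.194 CPM. These bounds are a description and cover counting error only. Wnt10a-201 carried 982 of the estimated counts in BCAM high and 541 in BCAM low, and the short Wnt10a-202 103 and 73.8.

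The difference of Wnt10a between BCAM high and BCAM low stood close to the threshold. In batch 1 alone it was 0.87 (edgeR adjusted p = 0.0294), and in batch 2 alone 0.69 (adjusted p = 0.587). The call was lost in 12 of 24 fits that each left out 1 library, namely BCAM high 2 to 6 and 8 and BCAM low 1 to 4, 6 and 7, with adjusted p between 0.00962 and 0.106 and the log2 difference between 0.70 and 1.00.

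Wnt9a, a ligand best known from joint and skeletal development, showed the largest fitted difference between BCAM high and BCAM low among the 6 testable Wnt genes. In batch 1 it was 8.93 to 17.5 CPM in the 5 BCAM high libraries and 3.43 to 7.80 CPM in the 5 BCAM low ones, with no overlap. In batch 2 the BCAM high libraries were at 52.7, 52.0 and 36.5 CPM and the BCAM low libraries at 14.1, 22.3 and 20.7 CPM, again with no overlap. Differentiated libraries ranged from 0.411 to 6.21 CPM with a median of 1.39 CPM.

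Across both batches Wnt9a was at 24.8 ± 19.3 CPM in BCAM high, 10.8 ± 7.28 CPM in BCAM low and 2.26 ± 2.15 CPM in differentiated (SD, n = 8). The fitted log2 difference between BCAM high and BCAM low was 1.10 (SE 0.33, edgeR adjusted p = 0.0385), and each batch alone gave 0.95 (adjusted p = 0.157) and 1.30 (adjusted p = 0.183). Against differentiated it was 3.23 (SE 0.42, adjusted p = 3.28e-07) for BCAM high and 2.13 (SE 0.43, adjusted p = 2.76e-04) for BCAM low. Wnt9a passed the low-count filter through its BCAM counts, so its adjusted p-values against differentiated are given as a description. The call between the BCAM groups was lost in 10 of 24 fits that each left out 1 library (BCAM high 5 to 8 and BCAM low 3 to 8), with adjusted p between 0.0156 and 0.0893. It was also lost with the replicate number as a block in place of batch (1.07, edgeR adjusted p = 0.0884).

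Wnt4, a ligand known from kidney, gonad and mammary development, had the highest counts of the listed genes in both BCAM groups. It ranged from 63.7 to 96.0 CPM in BCAM high (median 88.5) and from 55.7 to 157 CPM in BCAM low (median 80.6), and these groups overlapped throughout. The fitted log2 difference between BCAM high and BCAM low was -0.07 (SE 0.27, edgeR adjusted p = 0.920), and its sign turned on the TPM scale (0.21) and in batch 2 alone (0.48). Differentiated libraries were at 9.28 to 21.1 CPM in batch 1 and at 52.5, 53.3 and 30.9 CPM in batch 2, below every BCAM library. Wnt4 was higher than in differentiated by 1.70 in BCAM high (SE 0.29, adjusted p = 5.13e-05) and by 1.77 in BCAM low (SE 0.30, adjusted p = 6.39e-05) on the log2 scale.

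Wnt5a, a ligand that usually acts without beta-catenin, went the other way. It was 0.240 to 2.64 CPM in BCAM high (median 0.551), 0 to 3.28 CPM in BCAM low (median 2.12) and 6.55 to 17.1 CPM in differentiated (median 11.3). Every differentiated library was above every BCAM library. The fitted log2 difference from differentiated was -3.44 for BCAM high (SE 0.55, edgeR adjusted p = 7.98e-06) and -2.53 for BCAM low (SE 0.52, adjusted p = 3.40e-04), and that between the BCAM groups -0.91 (SE 0.56, adjusted p = 0.374). The group sums behind these values are small, with 28, 54 and 181 counts in BCAM high, BCAM low and differentiated. Wnt5a passed the low-count filter through its differentiated counts, so its adjusted p-values are given as a description.

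Connective tissue cells can express Wnt5a, so their markers are given beside it. The summed fibroblast markers (Col1a1, Col1a2, Col3a1, Pdgfra, Dcn, Lum) ranged from 0.411 to 308 CPM in differentiated, with 308, 5.97 and 0.411 CPM in libraries 6, 7 and 8. All 6 fibroblast markers had counts in each group, with sums of 173 to 672 CPM in BCAM high and 66.2 to 382 CPM in BCAM low. The 4 chondrocyte markers (Col2a1, Acan, Sox9, Matn1) summed to 30.5 to 67.8 CPM in differentiated libraries 1 to 5 and to 107, 133 and 162 CPM in libraries 6, 7 and 8. Their sums were at most 13.4 CPM in BCAM high and 9.46 CPM in BCAM low. Matn1 was at 0 in BCAM low, in batch 2 of BCAM high and in differentiated libraries 6 to 8. The highest sums therefore came from the other 3 markers. Thyroid follicle markers were highest in the same libraries 6 to 8. The part of any of these cells in the Wnt5a level was not tested.

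Wnt7b, the ligand of lung and airway epithelium that signals to the mesenchyme, was the one highly expressed listed gene with no called difference between groups. It ranged from 17.6 to 39.9 CPM in BCAM high (median 29.6), from 21.4 to 66.1 CPM in BCAM low (median 41.8) and from 4.27 to 52.0 CPM in differentiated (median 36.3). Differentiated 6 and 7, at 4.52 and 4.27 CPM, stood below all other 22 libraries, and differentiated 8 was at 26.3 CPM. The fitted log2 difference was -0.45 between BCAM high and BCAM low (SE 0.26, edgeR adjusted p = 0.325), 0.07 between BCAM high and differentiated (SE 0.26, adjusted p = 0.867) and 0.52 between BCAM low and differentiated (SE 0.26, adjusted p = 0.129).

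Without differentiated 6 and 7, the Wnt7b difference between BCAM high and BCAM low was of the same size, -0.46, and passed the threshold (edgeR adjusted p = 0.0427), and that between BCAM high and differentiated turned to -0.28 (adjusted p = 0.169). These are also the libraries with the lowest secretory and the highest thyroid follicle sums, whose part in the low Wnt7b level was not tested. Most Wnt7b counts were assigned to Wnt7b-205 (508 in BCAM high, 1097 in BCAM low, 307 in differentiated) and Wnt7b-202 (246, 50.5 and 149).

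Wnt5b, a close relative of Wnt5a, was low in all groups. It ranged from 2.48 to 10.6 CPM in BCAM high (median 4.53), from 3.06 to 8.51 CPM in BCAM low (median 5.02) and from 0 to 6.58 CPM in differentiated (median 2.99), with a count of 0 in differentiated 6 and 7. The fitted log2 difference between BCAM high and BCAM low was -0.03 (SE 0.47, edgeR adjusted p = 0.982). The differences from differentiated, 0.79 (SE 0.50, adjusted p = 0.212) and 0.83 (SE 0.50, adjusted p = 0.209), did not pass the threshold either. Without differentiated 8 alone, the first of them was 1.32 and passed (adjusted p = 0.0455).

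**Figure D2:**
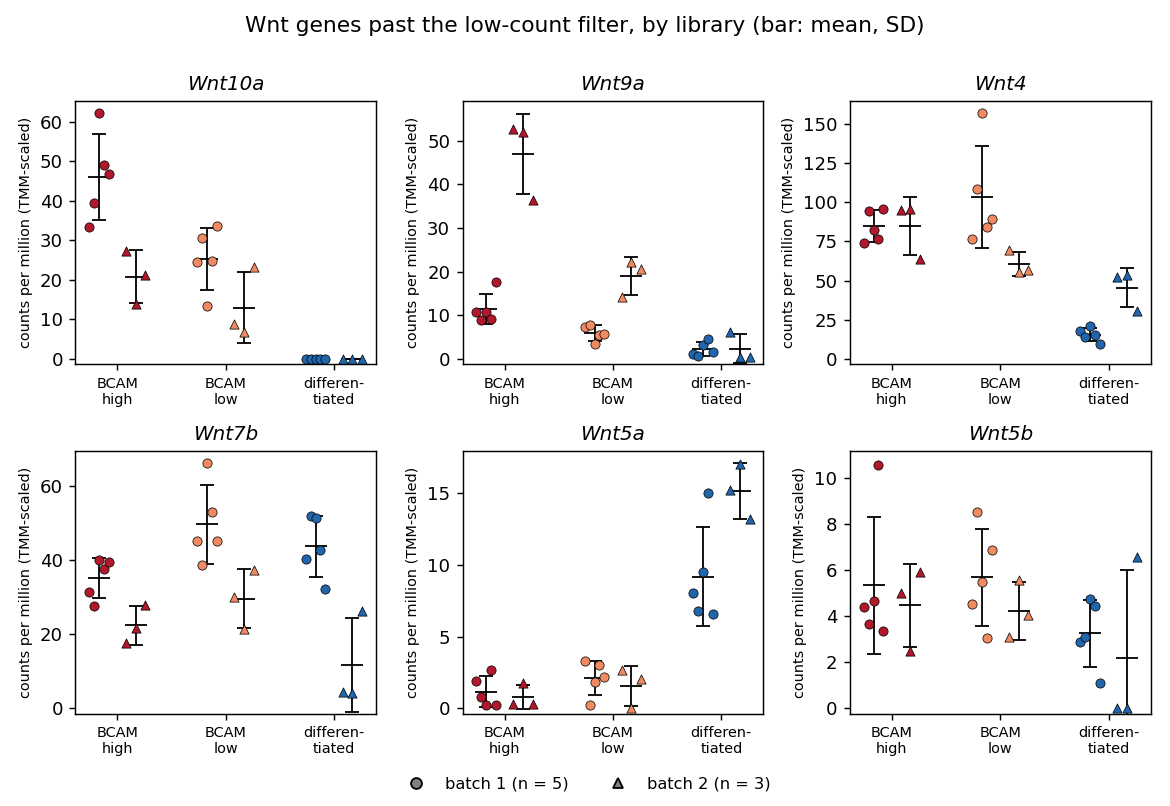
TMM-scaled CPM (y axis) of the 6 Wnt genes past the low-count filter in BCAM high, BCAM low and differentiated (x axis), with circles for batch 1 (n = 5) and triangles for batch 2 (n = 3) and bars for the mean and SD of each batch, drawn only down to the axis limit. Wnt10a is at 0 in all 8 differentiated libraries, Wnt5a is highest there, and Wnt9a is higher in batch 2 than in batch 1 in both BCAM groups.

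The 4 listed genes below the filter were given by their counts. Wnt3a, a classical activator of beta-catenin, had 86 counts in BCAM high (0 to 24 per library), 39 in BCAM low (0 to 12) and 1 in differentiated, in library 6. Per scaled library total, BCAM high exceeded differentiated by a ratio of 46.6 (exact 95% interval 8.14 to 1861) and BCAM low by 21.8 (3.69 to 883), intervals that cover counting error only. Between BCAM high and BCAM low the libraries overlapped, at 2.99 ± 2.28 and 1.53 ± 1.30 CPM (SD, n = 8).

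Wnt16, a ligand known from bone and blood stem cell development, had 35, 37 and 12 counts in BCAM high, BCAM low and differentiated. In BCAM high, 21 of the 35 came from library 6 and 30 from the 3 libraries of batch 2. Wnt11, known from heart and kidney development, had 1, 26 and 21 counts in the same order, with 13 of the 21 in differentiated 8. The ratio of BCAM low to BCAM high per scaled library total was 26.9 for Wnt11 (exact 95% interval 4.41 to 1101). It covers all transcripts of the gene, and most of these counts were not assigned to protein-coding ones. In BCAM low, 13.0 went to a transcript annotated for nonsense-mediated decay, 9.0 to a processed transcript and 4.0 to a protein-coding one. The BCAM high count went to the decay transcript. In differentiated, the decay and processed transcripts held 11.3 and 3.4. Wnt7a, a ligand of limb and reproductive tract, had 7, 7 and 0 counts, and 6 of the 7 in BCAM low were in library 3.

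None of the other 9 mouse Wnt genes passed the filter. Wnt2b had 43, 32 and 23 counts in BCAM high, BCAM low and differentiated. Wnt6, the chromosome 1 neighbour of Wnt10a, had 33 and 27 counts in the BCAM groups and, like Wnt10a, 0 in differentiated. Unlike Wnt10a it was sparse in the BCAM groups, with 17 of the 27 counts in BCAM low 2. In the BCAM libraries of batch 2 its only count was 1, in BCAM high 8. Wnt2 had 27 counts in differentiated, 22 of them in library 1, and 2 in BCAM low. Wnt9b (13, 7 and 4 counts), Wnt3 (5, 13 and 3), Wnt8b (8, 6 and 0), Wnt10b (0, 8 and 2), Wnt8a (1, 3 and 0) and Wnt1 (0, 1 and 0) were close to or at the limit of detection at this depth.

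**Figure D3:**
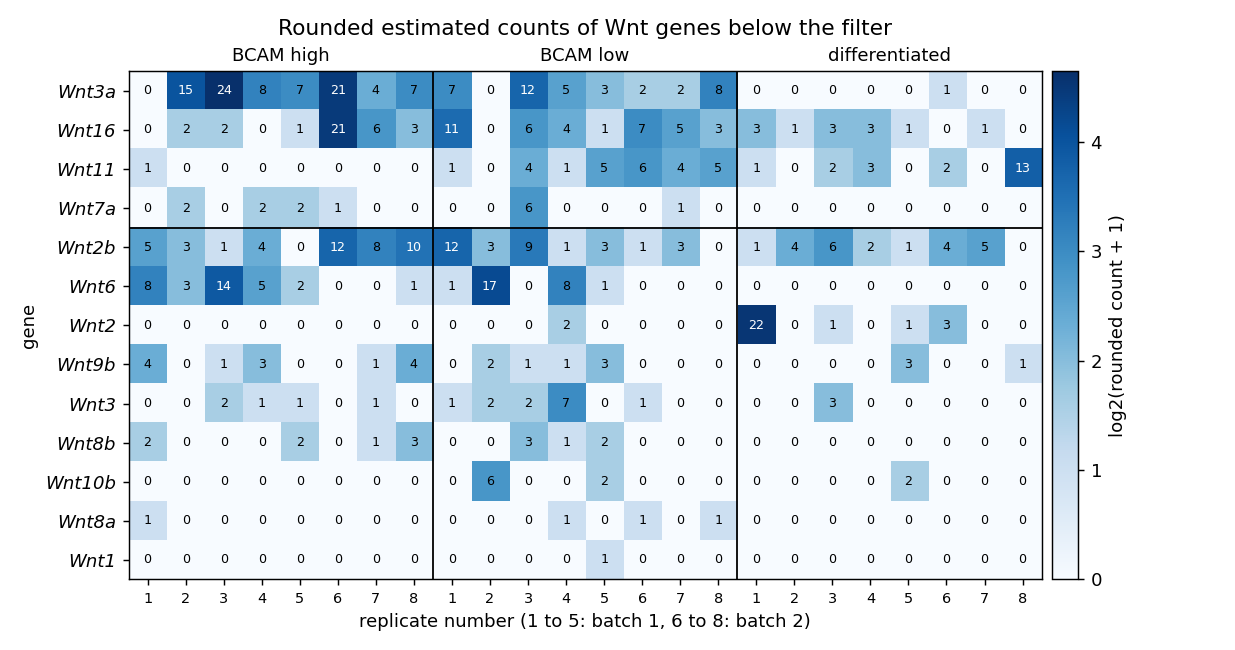
Rounded estimated counts of the 13 Wnt genes below the low-count filter (rows) in each of the 24 libraries (columns, replicate numbers within the 3 groups), with the 4 listed genes above the horizontal line and colour for log2(count + 1). Wnt3a and Wnt6 hold most of their counts in the BCAM groups, and the high counts of Wnt2 (22) and Wnt11 (13) in differentiated each come from 1 library.

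Batch was a second axis along which the ligands differed. In batch 2 against batch 1, with group as a covariate, 3 of the 6 testable Wnt genes were called, 1 higher and 2 lower, against 21.4% of all tested genes. Wnt9a was higher in batch 2 by 1.54 on the log2 scale (SE 0.30, edgeR adjusted p = 4.82e-04). Wnt10a was lower, with a log2 difference of -1.06 (SE 0.26, adjusted p = 0.00532), and so was Wnt7b, at -1.03 (SE 0.23, adjusted p = 0.00207). Without differentiated 6 and 7 the Wnt7b difference was -0.70 (adjusted p = 6.37e-04).

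In means, Wnt10a in BCAM high was 46.2 ± 10.9 CPM in batch 1 (SD, n = 5) and 20.8 ± 6.76 CPM in batch 2 (n = 3), and Wnt9a in the same libraries 11.4 ± 3.52 and 47.1 ± 9.17 CPM. In BCAM low the pair stood at 25.3 ± 7.79 and 13.0 ± 8.92 CPM for Wnt10a and at 5.94 ± 1.74 and 19.0 ± 4.33 CPM for Wnt9a. Compared per length, in TPM, Wnt10a exceeded Wnt9a in every batch 1 BCAM library, and in batch 2 it did so in 3 of 6 (BCAM high 6 and BCAM low 6 and 8), with Wnt9a above it in the other 3. What the batch number stands for is not given, so its source cannot be told apart from other differences between these libraries.

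The size of a group difference was then compared between batches by an interaction term. Between BCAM high and BCAM low none of the 6 genes was called, where edgeR called 1.06% of all tested genes. At an unadjusted p under 0.05 there was 1 gene of the 6, beside 1432 of all 12211 tested genes, so nothing is read from it. It was Wnt4 (interaction 0.77, edgeR unadjusted p = 0.0183). Each alternative test also called 0 of the 6. Between BCAM high and differentiated 1 was called (8.69% of all tested genes), and between BCAM low and differentiated 1 (11.4%). For Wnt10a no such value exists against differentiated, where its count was 0 throughout. Both calls were Wnt4. The Wnt4 log2 difference from differentiated shrank from 2.45 in batch 1 alone to 0.90 in batch 2 alone for BCAM high (interaction -1.54, SE 0.33, edgeR adjusted p = 0.00219), and from 2.73 to 0.41 for BCAM low (interaction -2.32, SE 0.34, adjusted p = 2.03e-05). In batch 2 alone the BCAM low difference was not called (adjusted p = 0.286).

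In the differentiated libraries, mean Wnt4 was 15.5 ± 4.40 CPM in batch 1 (SD, n = 5) and 45.6 ± 12.7 CPM in batch 2 (n = 3), while in BCAM low it was 103 ± 32.4 and 60.7 ± 7.47 CPM and in BCAM high 84.7 ± 10.1 and 85.0 ± 18.4 CPM. Without differentiated 6 and 7, the interaction was -0.99 for BCAM high (edgeR adjusted p = 0.242) and -1.76 for BCAM low (adjusted p = 0.00912). The thyroid follicle sum rose from at most 25109 CPM in differentiated batch 1 to at least 48110 CPM in batch 2, and its part in the Wnt4 level was not tested.

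For Wnt9a the interaction against differentiated was 2.13 for BCAM high (SE 0.78, adjusted p = 0.0880) and 1.76 for BCAM low (SE 0.79, adjusted p = 0.160), both below the threshold. Differentiated 6 holds 11 of the 33 differentiated counts of Wnt9a, and without it alone the interactions were 4.34 (adjusted p = 0.00150) and 3.98 (adjusted p = 0.00327). For Wnt7b the interactions were 1.20 (SE 0.50, adjusted p = 0.149) and 1.10 (SE 0.50, adjusted p = 0.168). Without differentiated 8 alone these became 2.65 (adjusted p = 1.79e-05) and 2.56 (adjusted p = 2.75e-05), and without differentiated 6 and 7 they were 0.07 (adjusted p = 0.981) and -0.02 (adjusted p = 0.992).

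**Figure D4:**
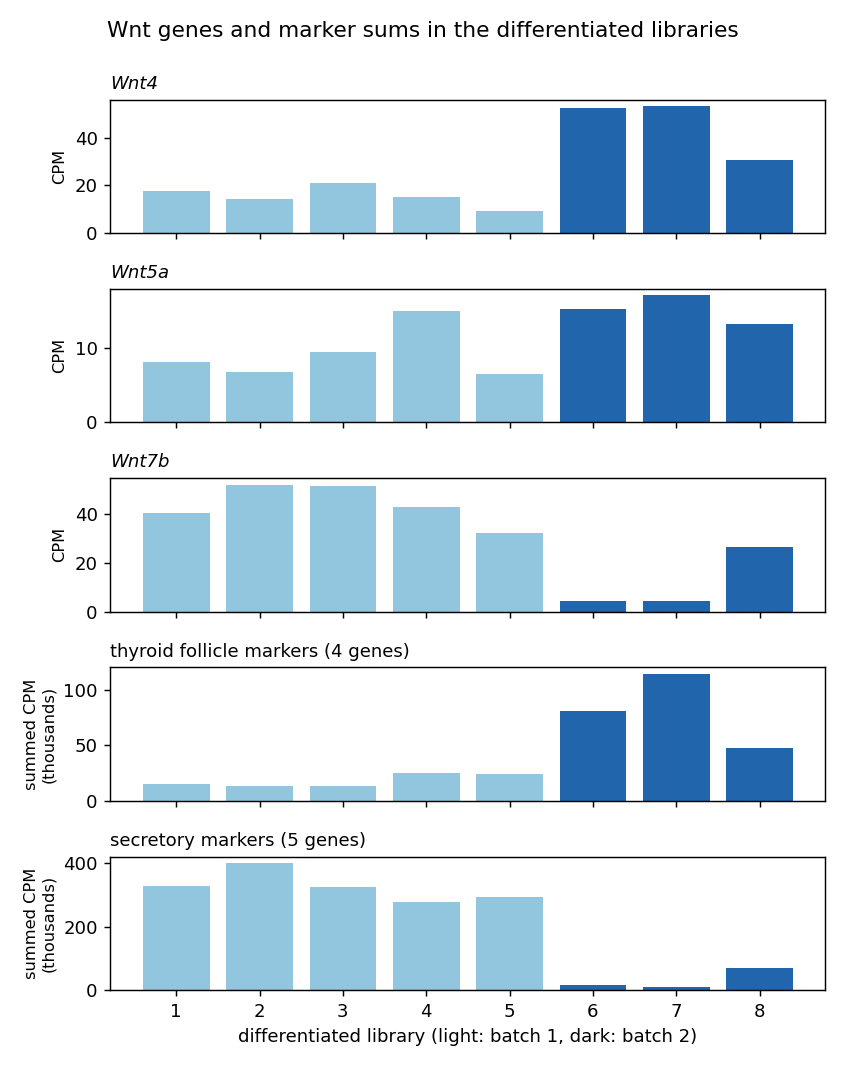
Wnt4, Wnt5a and Wnt7b in TMM-scaled CPM and the summed levels of 4 thyroid follicle and 5 secretory markers in units of 1000 CPM (y axes) in each differentiated library (x axis, batch 1 light, batch 2 dark). Libraries 6 and 7 combine the highest Wnt4 and Wnt5a with the lowest Wnt7b (4.52 and 4.27 CPM), the highest thyroid follicle sums and the lowest secretory sums.

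The other genes of the pathway were taken from a list of 87 genes, of which 50 could be tested. Between BCAM high and BCAM low 1 of 50 was called, against 7.02% of all tested genes. In BCAM high against differentiated 23 were called (20 higher, 3 lower) and in BCAM low against differentiated 19 (17 higher, 2 lower), with shares over all tested genes of 41.3% and 33.5%. The median log2 fold change of the 50 was 0.05, 0.29 and 0.33 in these comparisons. The interaction against differentiated called 9 of the 50 for BCAM high and 9 for BCAM low, beside 8.69% and 11.4% of all tested genes. They included 3 receptors or co-receptors in each comparison, and 4 and 3 feedback targets.

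Of the secretion genes, Wls was the 1 pathway gene called between BCAM high and BCAM low. It ranged over 760 to 862 CPM in BCAM high, while BCAM low had 316 to 633 CPM and differentiated 302 to 425 CPM, so BCAM high lay above both other groups without overlap. The log2 difference was 0.63 between BCAM high and BCAM low (SE 0.10, edgeR adjusted p = 1.62e-04), 1.24 between BCAM high and differentiated (SE 0.10, adjusted p = 4.50e-11) and 0.62 between BCAM low and differentiated (SE 0.10, adjusted p = 1.61e-05). In batch 2 alone the difference between the BCAM groups was 0.46 (adjusted p = 0.0656).

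Porcn, the acylating enzyme, followed another order. In batch 1 it was 358 ± 58.7 CPM in BCAM high, 525 ± 33.9 CPM in BCAM low and 810 ± 86.9 CPM in differentiated (SD, n = 5), and in batch 2 it was 153 ± 33.6, 306 ± 41.1 and 147 ± 103 CPM (n = 3). The difference of BCAM high from differentiated was called at -0.79 (SE 0.25, edgeR adjusted p = 0.0139), with -1.18 in batch 1 alone and 0.06 in batch 2 alone (adjusted p = 0.936), and this change between batches was itself called (interaction 1.24, SE 0.36, adjusted p = 0.0351). BCAM low against differentiated was at -0.04 (SE 0.25, adjusted p = 0.917), and at -0.42 without differentiated 6 and 7 (adjusted p = 0.0103). This difference was -0.63 in batch 1 alone (edgeR adjusted p = 8.8e-05) and 1.06 in batch 2 alone (adjusted p = 0.153). Its change between batches was called by the interaction too. BCAM high against BCAM low was at -0.75 (SE 0.25, adjusted p = 0.0719) and passed without differentiated 6 and 7 (adjusted p = 7.52e-05).

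Of the receptors and co-receptors, 15 of 18 were tested, with 0, 3 and 4 called in the 3 comparisons, all higher in the BCAM groups, beside 7.02%, 41.3% and 33.5% of all tested genes. The Frizzled receptor Fzd8 was higher than in differentiated by 1.85 in BCAM high (SE 0.39, edgeR adjusted p = 3.30e-04) and by 1.57 in BCAM low (SE 0.40, adjusted p = 0.00288), where batch 2 alone gave 1.16 (adjusted p = 0.251). The pseudokinase receptor Ptk7 was higher by 2.00 (SE 0.17, adjusted p = 1.28e-10) and 1.58 (SE 0.17, adjusted p = 1.87e-08), at 179 ± 35.2 CPM in BCAM high, 133 ± 26.4 CPM in BCAM low and 44.4 ± 14.3 CPM in differentiated (SD, n = 8). Fzd10 was the third gene called in both, and Lrp6 the fourth in BCAM low. Fzd10 and the genes of the groups below that are given by name alone were named after their values were seen. Lrp6 differed there by 0.44 (SE 0.16, adjusted p = 0.0397) and in BCAM high by 0.22 (adjusted p = 0.308), and Lrp5 by 0.39 (adjusted p = 0.318) and 0.26 (adjusted p = 0.500). The Lrp6 call was lost in 9 of 24 fits that each left out 1 library (BCAM low 1 to 4 and 8, differentiated 1 to 3 and 8).

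Secreted and membrane inhibitors were mostly too low to test, with 5 of 17 past the filter, of which 0, 4 and 4 were called, beside the same 7.02%, 41.3% and 33.5% of all tested genes. All 4 were higher in the BCAM groups: Sfrp1, Dkk3, Kremen1 and Apcdd1. Sfrp1, a secreted protein that binds Wnt ligands, was 29.7 ± 16.5 CPM in BCAM high, 22.6 ± 8.53 CPM in BCAM low and 1.31 ± 1.35 CPM in differentiated (SD, n = 8). Its log2 difference from differentiated was 4.43 (SE 0.39, edgeR adjusted p = 2.41e-10) and 4.11 (SE 0.39, adjusted p = 2.33e-09). Sfrp1 passed the low-count filter through its BCAM counts, so these adjusted p-values are given as a description. Dkk3, a divergent member of the Dickkopf family, differed by 2.54 (SE 0.36, adjusted p = 4.61e-06) and 2.02 (SE 0.35, adjusted p = 1.21e-04). None of the 4 R-spondins, which amplify Wnt signals, passed the filter.

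Inside the receiving cell, 14 of 17 core genes were tested, with 0, 5 and 4 called, all higher in the BCAM groups. With 7.02%, 41.3% and 33.5% of all tested genes called, these counts show nothing particular to the core genes. Ctnnb1 itself was 286 ± 55.0 CPM in BCAM high, 388 ± 100 CPM in BCAM low and 255 ± 108 CPM in differentiated (SD, n = 8). It was higher in BCAM low than in differentiated by 0.67 (SE 0.14, edgeR adjusted p = 6.10e-04), while BCAM high differed from differentiated by 0.28 (adjusted p = 0.128) and from BCAM low by -0.39 (SE 0.14, adjusted p = 0.0988). Without differentiated 6 and 7 the last value was -0.40 and passed (adjusted p = 0.0194), and in batch 1 alone the difference between BCAM high and differentiated turned to -0.09. In batch 2 alone it was 0.92 and passed (adjusted p = 0.00481), and the change between batches was called (interaction 1.01, SE 0.23, adjusted p = 0.00368). Of 5 testable planar polarity genes of 8 listed, 0, 3 and 3 were called, beside the same 7.02%, 41.3% and 33.5% of all tested genes. Vangl1, Vangl2 and Celsr2 were the 3, higher in both BCAM groups than in differentiated. The interaction between BCAM low and differentiated was called for 2 of the 5, beside 11.4% of all tested genes. Celsr2 and Celsr1 were the 2, with a difference that was lower in batch 2.

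Target genes did not move one way. Of 12 feedback targets 9 were tested, with 0 called between the BCAM groups, 6 in BCAM high against differentiated (4 higher, 2 lower) and 3 in BCAM low against differentiated (1 higher, 2 lower). The shares of all tested genes were again 7.02%, 41.3% and 33.5%. The 2 lower genes were the feedback inhibitors Nkd1, at -4.29 (SE 0.56, edgeR adjusted p = 3.97e-07) and -4.57 (SE 0.59, adjusted p = 5.31e-07), and Nkd2, at -2.51 (SE 0.52, adjusted p = 2.78e-04) and -2.62 (SE 0.53, adjusted p = 3.10e-04). In batch 1 alone Nkd2 did not pass the filter, and in batch 2 alone its first value was -1.89 (adjusted p = 0.0558). Nkd1 was 5.18 to 16.1 CPM in differentiated batch 1 and 28.4 to 58.9 CPM in batch 2, and at most 2.51 CPM in any BCAM library, so the groups did not overlap. Its counts lie mostly in differentiated and let it pass the filter, so its adjusted p-values are given as a description. Those of Nkd2, which was also higher in differentiated than in both BCAM groups, are given in the same way.

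Axin2, the most widely used reporter of beta-catenin signalling, did not pass the filter. It had 16, 14 and 9 counts in BCAM high, BCAM low and differentiated, and at most 8 in a library. Counts this low leave small differences in Axin2 out of reach at this depth, and none was tested.

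**Figure D5:**
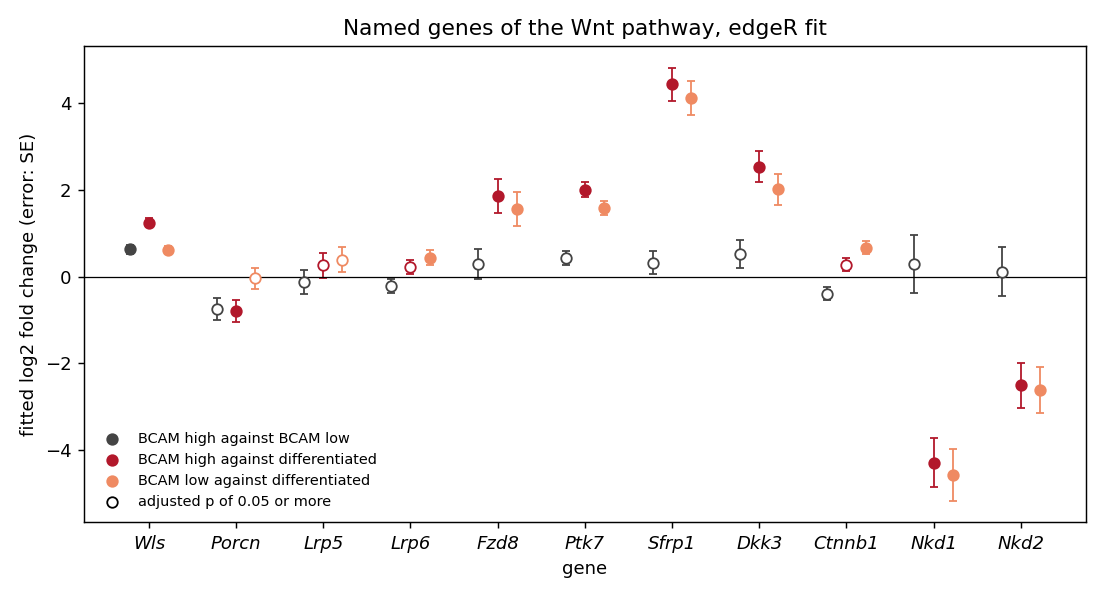
Fitted log2 fold changes with SE (y axis) of 11 named pathway genes (x axis) in the 3 comparisons between groups, with filled points for an adjusted p under 0.05 and open points otherwise. Wls is the only filled point between BCAM high and BCAM low, Sfrp1 has the highest and Nkd1 the lowest values against differentiated.

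For each testable ligand, the genes with the most similar course were taken by the Pearson correlation of log2 CPM over the 24 libraries, which share groups and batches, so these values describe the design as much as the genes. Wnt10a was closest to Dlk2 (r = 0.979), Ccdc3 (r = 0.978) and Ces2e (r = 0.977), all over 24 libraries. Once the mean of each group and batch was taken out, these fell to 0.175, 0.104 and 0.311. Wnt4 was closest to Gnaq, Fat2 and Itga6 (r = 0.914, 0.913 and 0.911), of which Itga6 is an integrin that anchors basal cells to the basement membrane, and within groups and batches they were 0.554, 0.221 and 0.251. Wnt9a was closest to Sbno1, Phyhip and Slc16a7 (r = 0.915, 0.912 and 0.905, within groups and batches 0.617, 0.547 and 0.545).

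The genes closest to Wnt7b and to Wnt5b kept most of their correlation within groups and batches. For Wnt7b they were S100a6 (r = 0.961, within 0.876), the simple-epithelial keratin Krt19 (r = 0.953, within 0.884) and the galectin Lgals3 (r = 0.938, within 0.884). Differentiated 6 and 7 are among the points behind these values. Wnt5b was closest to Eya2, Pax9 and Gramd3 (r = 0.838, 0.838 and 0.828, within 0.793, 0.762 and 0.77), and Wnt5a to Igfn1, Parm1 and Pik3ap1 (r = 0.928, 0.926 and 0.918, within 0.656, 0.661 and 0.701).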

How the data were processed

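Per the submitters' processing notes, the tools named were kallisto 46.1 and Picard and the genome build GRCm39; filters and strand settings are not stated there. The authors deposited 1 table per library with 117497 transcripts, giving estimated counts and TPM per the file headers. Transcripts were matched by identifier to GENCODE M21 (116374 matched; the 1123 others held 0.317% to 0.594% of a library) and both values summed per gene. Rounded sums entered edgeR 4.0.16 (R 4.3.3; TMM factors, filterByExpr, robust quasi-likelihood fit) with group and batch over all 24 libraries and Benjamini-Hochberg adjustment over 12211 genes; a second fit had a mean per group and batch. Alternatives used DESeq2 1.42.0, limma 3.58.1 on log2(TPM + 0.1) or log2(TPM + 1), other filters, covariates and samples, and the replicate number as a block. Members and lists were chosen with earlier results of these data known. Named were all Wnt genes; per comparison and direction the 4 called pathway genes with the largest change at a mean of at least 5 CPM; Porcn, Wls, Axin2, Ctnnb1, Lrp5 and Lrp6; and the 3 genes most correlated with each testable ligand. Counts carry no molecular identifiers, and intervals and floors therefore reflect counting error alone. Some marker genes are not reported here and were left out of their marker sums.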

Additional observations from a re-analysis of the deposited data

Results flagged for a closer look

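Among 28 groups of 8 libraries with counts of a listed gene, 6 had 1 library far from the other 7. By chance about 5 percent of groups do when values are normally distributed, which sparse counts are not. A group whose only count lies in 1 library is always flagged, as for Wnt11 in BCAM high and Wnt3a in differentiated. No excess can therefore be read from the 6 flags. Wnt5b was at 10.6 CPM in BCAM high 4. Wnt16 was at 6.59 CPM in BCAM high 6, from 21 counts. Wnt11 was at 5.35 CPM in differentiated 8, from 13 counts, and at 0.275 CPM in BCAM high 1, from 1 count. Wnt7a was at 1.37 CPM in BCAM low 3, from 6 counts, and Wnt3a at 0.565 CPM in differentiated 6, from 1 count. Wnt4 differed from the differentiated group by different amounts in the 2 batches, with an interaction of -1.54 for BCAM high and -2.32 for BCAM low on the log2 scale.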

How the results depend on the processing

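Of 1921 gene values recomputed under alternatives, 1780 kept direction and side of the threshold, 55 lost and 40 gained the call, and 46 changed sign; the causes were not tested. The 2 ligands called between BCAM high and BCAM low became 0 with transcript length offsets, 0 on log2(TPM + 0.1), 0 without a batch covariate, 1 in batch 1 alone, 0 in batch 2 alone, and 0 to 2 when single libraries were left out. The 1 pathway gene of that comparison became 2 with the DESeq2 Wald test, 3 and 4 on log2(TPM + 0.1) and log2(TPM + 1), 5 in batch 1 alone, 7 with only these groups fitted, 4 without differentiated 6 and 7 (a setting chosen after seeing the data), and 1 to 2 with single libraries left out. Against differentiated, both TPM settings called 42 pathway genes for BCAM high in place of 23 and 35 for BCAM low in place of 19. The 1 interaction call for BCAM high became 2 with the DESeq2 Wald test, without the filter and on log2(TPM + 1), and 1 to 3 with single libraries left out; that for BCAM low became 2 without differentiated 6 and 7, and 1 to 3 with single libraries left out.

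With the replicate number as a block in place of batch, 1 ligand and 2 pathway genes were called between the BCAM groups, and 2 ligands in each interaction against differentiated, Wnt7b besides Wnt4 (1.42, adjusted p = 0.0207, and 1.34, adjusted p = 0.0246); Wnt9a was at 1.07 (edgeR adjusted p = 0.0884) and Wnt10a at 0.85 (adjusted p = 0.0490). Deviations of same-numbered libraries correlated at 0.032 to 0.176 (median 0.078), over 0.1 in 7 of 24 pairs, and 23 of 24 libraries correlated best with their own number. The 78 pairs of different numbers in the same batch correlated at -0.144 to 0.074 (median -0.019), with 0 over 0.1. Same-numbered libraries were thus slightly more alike than other libraries of their batch. What they share is not given in the labels and was not tested, and the main fits do not use the number.

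Changes of sign on the log2 scale were as follows. Between BCAM high and BCAM low, Wnt4 turned to 0.21 and 0.20 on the TPM settings (+ 0.1, + 1) and 0.48 in batch 2 alone (-0.18 to 0.12 with single libraries left out), Wnt5b to 0.00 without the filter, 0.11 and 0.08 on TPM and 0.08 in batch 2 (-0.27 to 0.08), Lrp5 to 0.26 and 0.16 on TPM and 0.30 in batch 2, and Lrp6 to 0.08 in all 3 of these. Between BCAM high and differentiated, Wnt7b turned to -0.05 without a batch covariate, -0.31 in batch 1 and -0.28 without differentiated 6 and 7 (-0.09 to 0.19), Porcn to 0.16 on both TPM settings and 0.06 in batch 2, and Ctnnb1 to -0.09 in batch 1. Between BCAM low and differentiated, Porcn turned to 0.02 without the filter, 0.08 with length offsets, 0.65 on both TPM settings and 1.06 in batch 2 (-0.22 to 0.04). The Wnt7b interaction turned to -0.02 for BCAM low against differentiated without differentiated 6 and 7, and ranged from -0.11 to 0.30 between the BCAM groups. Genes with fewer than about 3 counts in most libraries could not be compared at this depth.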
